A study of Mus musculus with 6 samples.

Results

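Polycomb group proteins form the nuclear complexes PRC1 and PRC2, and the transcripts of 35 of their subunits were followed from naive to formative pluripotency. The subunits were chosen by symbol as core and accessory members of both complexes, and each was matched to a single Ensembl identifier among the 51826 genes in the deposited table. The cells were 3 libraries of epiblast-like cells (EpiLC), wild-type V6.5 cells on day 3 without LIF and without the 2i inhibitors of GSK3 and MEK, and 3 libraries of embryonic stem cells (ESC), wild-type V6.5 cells kept in LIF and 2i. V6.5 is a mouse embryonic stem cell line, so both groups come from the same line. The medium base, Knockout DMEM with 15% fetal bovine serum, was common to both, and the labels list no further factor for EpiLC. Nothing in the labels says whether the libraries of a group came from separate cultures, so p-values measure the spread between these libraries, which may be technical.

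PRC2 methylates histone H3 at lysine 27. EZH2 or EZH1 is the methyltransferase, EED reads the mark and stimulates the enzyme, SUZ12 is the scaffold, and RBBP4 and RBBP7 bind histones. Accessory subunits bring PRC2 to CpG islands in alternative forms, either with a Polycomb-like protein (MTF2, PHF1 or PHF19) and EPOP, or with JARID2 and AEBP2. PRC1 ubiquitinates histone H2A through RNF2 or RING1. In canonical PRC1 a CBX protein reads the PRC2 mark and PHC proteins polymerise, whereas variant PRC1 holds RYBP or YAF2 in place of CBX. In embryonic stem cells both complexes hold developmental genes in a repressed but inducible state.

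Libraries held 9710410 to 22879812 counts. The state labels were checked on markers. All 9 naive markers were lower in EpiLC, with summed levels of 288 to 296 CPM in EpiLC and 3248 to 3423 CPM in ESC, and all 7 formative markers were higher, with 1437 to 1729 CPM in EpiLC and 233 to 280 CPM in ESC. CPM are counts scaled to a common library total by TMM, so that they compare across libraries. ESC replicate 3 stood apart from the other ESC libraries, giving a chi-square divided by its degrees of freedom of 25.7 and 26.1 against ESC replicates 1 and 2, whereas every other pair within a group lay between 2.17 and 4.11. For 5 of the 35 subunits it lay more than 0.5 on the log2 scale from the mean of ESC replicates 1 and 2, as for 20.3% of all genes tested. Subunits whose call changed without it are given both ways.

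All 35 subunits passed the filter on low counts. With edgeR's quasi-likelihood test at an adjusted p under 0.05, 24 were called, 10 higher and 14 lower in EpiLC. The background is high, since 64.6% of the 14996 genes tested were called, 32.0% higher and 32.6% lower. The share of subunits called, 68.6%, is therefore close to that of all genes. Without ESC replicate 3, 28 subunits were called. The share of all genes called in that refit is not given here, so the 28 cannot be set against the 64.6%. At 2-fold or more, 1 subunit was higher and 4 were lower, against 17.0% and 12.4% of all genes. The count of 1 was 4 when scaled by upper quartiles or library totals. Leaving out ESC replicate 3 made it 3, and leaving out EpiLC replicate 1, EpiLC replicate 3 or ESC replicate 2 made it 2. The groups did not overlap for 25 of 35 subunits, against 70.2% of all genes. The median log2 fold change (EpiLC minus ESC throughout) was -0.02 over the subunits and 0.01 over all genes. In bulk RNA, fewer cells of a type and less RNA per cell cannot be told apart.

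The classes are described by their counts. In the PRC2 core 0 of 6 rose and 4 fell, with a median log2 fold change of -0.31. Of the 6 PRC2 accessory subunits, 1 rose and 4 fell, with a median of -0.86. Canonical PRC1 was split, with 3 of 10 higher, 2 lower and a median of 0.18. Without ESC replicate 3, 5 of them were higher, and without EpiLC replicate 2 or EpiLC replicate 3, 1 was lower. Variant PRC1 had 6 of 11 higher, 3 lower and a median of 0.46. Of the catalytic subunits of PRC1, Rnf2 fell and Ring1 was not called. Of all genes tested, 64.6% were called, 32.0% higher and 32.6% lower. The share called was 66.7% in the PRC2 core, 83.3% in the PRC2 accessory class and 81.8% in variant PRC1. With all libraries, canonical PRC1 had 5 of 10 called, below the share of all genes. No test between classes was run.

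**Figure D1:**
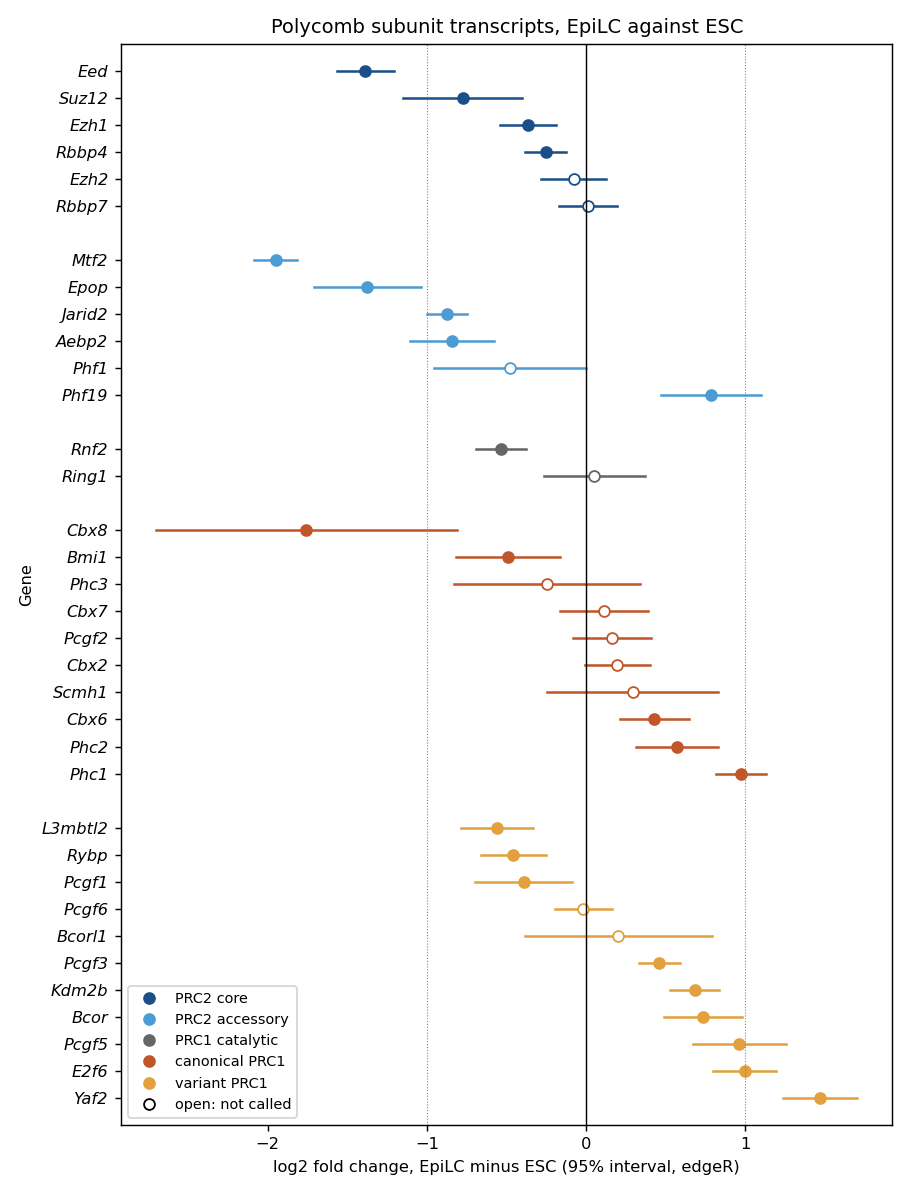
Log2 fold change (x axis, EpiLC minus ESC) of each subunit with its 95% interval from edgeR, grouped by class down the page, and n = 3 libraries per group. Filled points passed the adjusted p threshold of 0.05, open points did not, and dotted lines mark 2-fold. The PRC2 points lie mostly left of 0, reaching -1.95 for Mtf2, and the variant PRC1 points lie mostly right of it, reaching 1.47 for Yaf2.

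The promoters of a pair of subunits with large falls and a pair with large rises are shown by sequence, chosen among those with a RefSeq window and over 100 counts in each library. Of the 35, 30 had a window, and Cbx2, Epop, Pcgf1, Rybp and Yaf2 did not. The 250 bases upstream of the start on GRCm38.p6 are printed 5′ to 3′ on the gene's strand, with each CG in capitals, because CpG-dense promoters are where KDM2B and the Polycomb-like proteins bind. Mtf2 (chr5:108065424-108065673, plus strand) and Eed (chr7:89980977-89981226, minus strand) fell, and Phc1 (chr6:122340228-122340477, minus strand) and E2f6 (chr12:16810715-16810964, plus strand) rose.
Mtf2: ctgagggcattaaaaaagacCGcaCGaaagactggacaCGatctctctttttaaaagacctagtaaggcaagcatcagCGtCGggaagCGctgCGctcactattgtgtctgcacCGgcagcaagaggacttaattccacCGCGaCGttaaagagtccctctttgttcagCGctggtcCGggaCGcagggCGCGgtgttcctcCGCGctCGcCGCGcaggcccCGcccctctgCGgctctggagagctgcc
Eed: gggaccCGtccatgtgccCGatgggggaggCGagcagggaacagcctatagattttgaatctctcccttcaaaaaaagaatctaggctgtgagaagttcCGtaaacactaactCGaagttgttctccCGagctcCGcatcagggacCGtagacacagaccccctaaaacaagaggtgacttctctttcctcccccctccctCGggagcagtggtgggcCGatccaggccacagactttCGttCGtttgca
Phc1: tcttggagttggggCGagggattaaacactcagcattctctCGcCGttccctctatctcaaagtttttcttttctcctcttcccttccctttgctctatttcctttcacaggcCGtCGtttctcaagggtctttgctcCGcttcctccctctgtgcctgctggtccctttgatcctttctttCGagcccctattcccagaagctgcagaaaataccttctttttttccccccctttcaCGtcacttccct
E2f6: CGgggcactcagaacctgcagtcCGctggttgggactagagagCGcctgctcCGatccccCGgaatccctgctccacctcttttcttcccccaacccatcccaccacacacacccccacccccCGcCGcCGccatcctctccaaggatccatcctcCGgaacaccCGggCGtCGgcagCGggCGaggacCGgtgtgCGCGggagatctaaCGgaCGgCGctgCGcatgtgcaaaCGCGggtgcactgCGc
The windows of the 2 genes that fell held 23 CG in Mtf2 and 12 in Eed, and those of the 2 genes that rose held 8 in Phc1 and 24 in E2f6. Within each pair the CG number differed widely. Over the 30 windows the median was 21.5 CG, with a range of 1 to 45, and over the 10673 windows of genes tested it was 16. The RefSeq start after the window of Mtf2 is the gene's start in GENCODE, whereas that of Phc1 lies 334 bases inside the GENCODE gene and that of Cbx7, the furthest, 38473 bases inside it.

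Letter matches to 7 motifs were counted on both strands of the 250 bases. The SP box GGGCGG was in 21 of 30 subunit windows (70.0%) and in 61.04% of the windows of genes tested. CCAAT was in 9 (30.0%) against 36.84%, the E-box CACGTG in 8 (26.67%) against 8.6%, and the E2F letters TTTGGCGC, TTTCGCGC or TTTCCCGC in 2 (6.67%) against 3.11%. The NRF1 motif was in 1 (3.33%) against 1.64%, whereas the ETS letters CCGGAAG (13.78% of windows) and TATAAA (6.02%) were in 0. In Mtf2 only the SP box matched, and Eed, Phc1 and E2f6 held none of these letters. The E-box matches were in Bcorl1, Bmi1, Cbx6, Cbx8, Pcgf2, Phc2, Phc3 and Rbbp4, of which Cbx6 and Phc2 rose, Bmi1, Cbx8 and Rbbp4 fell and the others were not called.

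The core of PRC2 lost EED transcript most. Eed (ENSMUSG00000030619, chromosome 7, 89954654 to 89980983 on GRCm38, as for all gene positions) stood at 86.8, 84.5 and 88.3 CPM in EpiLC replicates 1 to 3 and at 242, 234 and 203 CPM in ESC replicates 1 to 3. Every EpiLC library lay below every ESC library, and Eed was 2.62-fold lower in EpiLC (edgeR log2 fold change -1.39, SE 0.08, adjusted p = 2.43e-06). Suz12 (chromosome 11, 79993106 to 80034123), the scaffold, had 174, 177 and 171 CPM in EpiLC and 247, 259.5 and 390.2 CPM in ESC. The groups did not overlap, but ESC replicate 3 lay well above the other ESC libraries. The log2 fold change of Suz12 was -0.78 (SE 0.16, adjusted p = 0.00307) and -0.55 without ESC replicate 3.

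The methyltransferase genes differed from each other. Ezh2, the main enzyme of dividing cells, had 124, 125 and 120.2 CPM in EpiLC and 119, 123 and 148 CPM in ESC, so the groups overlapped. It was not called (log2 fold change -0.08, 95% interval -0.28 to 0.13), and its sign turned without ESC replicate 3 (0.01). Ezh1, the paralog of lower activity, averaged 33.9 ± 1.51 CPM in EpiLC and 43.7 ± 1.80 CPM in ESC (SD, n = 3 each) and fell 1.29-fold (adjusted p = 0.00321). Per kilobase of exon, Ezh2 made up 80.1% ± 0.80 of the EZH transcripts in EpiLC and 76.7% ± 2.73 in ESC, and the groups overlapped. Among the histone-binding subunits, which also serve other chromatin complexes, Rbbp4 averaged 334 ± 2.64 CPM in EpiLC and 399 ± 16.8 CPM in ESC and fell 1.19-fold (adjusted p = 0.00440). Rbbp7 averaged 421 ± 20.6 CPM in EpiLC and 418 ± 37.6 CPM in ESC and was not called (log2 fold change 0.01, 95% interval -0.17 to 0.19), and a pseudogene, Gm6382, matches 41.98% of its transcript at up to 97.13% identity.

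The ratios of the core transcripts were compared too. Per kilobase of exon the Eed to Ezh2 ratio was 1.22, 1.18 and 1.28 in EpiLC and 3.55, 3.31 and 2.40 in ESC. The Ezh2 to Suz12 ratio was 0.528, 0.520 and 0.519 in EpiLC and 0.356, 0.352 and 0.280 in ESC. The Eed to Suz12 ratio was 0.644, 0.616 and 0.666 in EpiLC and 1.27, 1.16 and 0.673 in ESC. The groups did not overlap in any of the 3 ratios, and ESC replicate 3 was the lowest ESC library in each, lying next to EpiLC in the ratio of Eed to Suz12. An exact two-sided permutation test gave p = 0.1 for each, the smallest that 3 against 3 libraries allow. Of the other ratios computed, that of Mtf2 to Suz12 did not overlap between groups, whereas that of Jarid2 to Suz12 did. These ratios were picked after their values were seen, so the test lends them no support, and they compare transcripts, not proteins.

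Among the accessory subunits, the form with MTF2 and EPOP lost most transcript. Mtf2, the Polycomb-like protein that ties PRC2 to CpG islands (ENSMUSG00000029267, chromosome 5, 108065674 to 108109004), stood at 193, 208 and 198 CPM in EpiLC and at 780.0, 784 and 753 CPM in ESC. It was 3.87-fold lower in EpiLC, the largest fall among the 35 subunits (edgeR log2 fold change -1.95, SE 0.06, adjusted p = 1.21e-07), and the groups lay far apart. Epop, which links PRC2 to elongin (chromosome 11, 97627389 to 97629702), had 50.3, 55.7 and 61.2 CPM in EpiLC and 166, 154 and 113 CPM in ESC. It fell 2.59-fold (log2 fold change -1.37, SE 0.14, adjusted p = 6.95e-05), with ESC replicate 3 the lowest of its group.

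The other PRC2 form fell too, by less than 2-fold. Jarid2, which binds PRC2 and stimulates it (chromosome 13, 44729474 to 44921643), had 155, 148 and 151 CPM in EpiLC and 272, 283 and 278 CPM in ESC (log2 fold change -0.87, SE 0.06, adjusted p = 4.16e-06). Its partner Aebp2, a zinc finger protein, had 85.6, 86.9 and 87.3 CPM in EpiLC and 142, 138 and 187 CPM in ESC (log2 fold change -0.84, SE 0.12, adjusted p = 0.000312). Neither gene's groups overlapped, and the value of Aebp2 was -0.71 without ESC replicate 3.

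Phf19, another Polycomb-like paralog, was the only PRC2 gene of the 12 to rise. It had 10.3, 9.67 and 8.57 CPM in EpiLC and 5.24, 5.81 and 5.49 CPM in ESC (1.72-fold, adjusted p = 0.00117). Per kilobase of exon its level was 1.89 CPM in EpiLC, against 35.1 CPM for Mtf2 in the same libraries. Phf1, the remaining paralog, had 4.62, 2.91 and 3.39 CPM in EpiLC and 5.66, 4.60 and 4.79 CPM in ESC. The gene missed the threshold (adjusted p = 0.0730, with alternatives from 0.0286 to 0.248), although it passed without EpiLC replicate 1 (adjusted p = 0.0332) and without ESC replicate 3 (0.0286). Phf1 is uncertain, since 39.3% of its exon bases overlap the opposite-strand gene Cuta (11.3 CPM in EpiLC and 17.6 CPM in ESC) and the strand setting of the counting is not given in the sources used here.

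Within the Polycomb-like family Mtf2 remained the main transcript. Per kilobase it made up 90.9%, 93.0% and 92.9% in EpiLC and 98.1%, 98.2% and 98.2% in ESC. Phf19 made up 4.98% ± 0.49 in EpiLC and 0.793% ± 0.042 in ESC (SD, n = 3 each). Over the 6 accessory genes together, Mtf2 held 40.6% ± 1.16 in EpiLC and 55.4% ± 1.61 in ESC, and Jarid2 held 18.1% ± 0.91 in EpiLC and 11.7% ± 0.69 in ESC. Each of these shares did not overlap between groups.

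The summed length-corrected level of the accessory class was 86.5 ± 2.46 CPM per kilobase in EpiLC and 245 ± 12.0 in ESC. Leaving out Mtf2, it was still lower, at 51.4 ± 1.91 in EpiLC and 109 ± 9.15 in ESC. The core sum was 264 ± 7.27 CPM per kilobase in EpiLC and 334 ± 2.75 in ESC, with Rbbp7 its most abundant member at 145 ± 7.08 CPM per kilobase in EpiLC and 144 ± 12.9 in ESC.

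**Figure D2:**
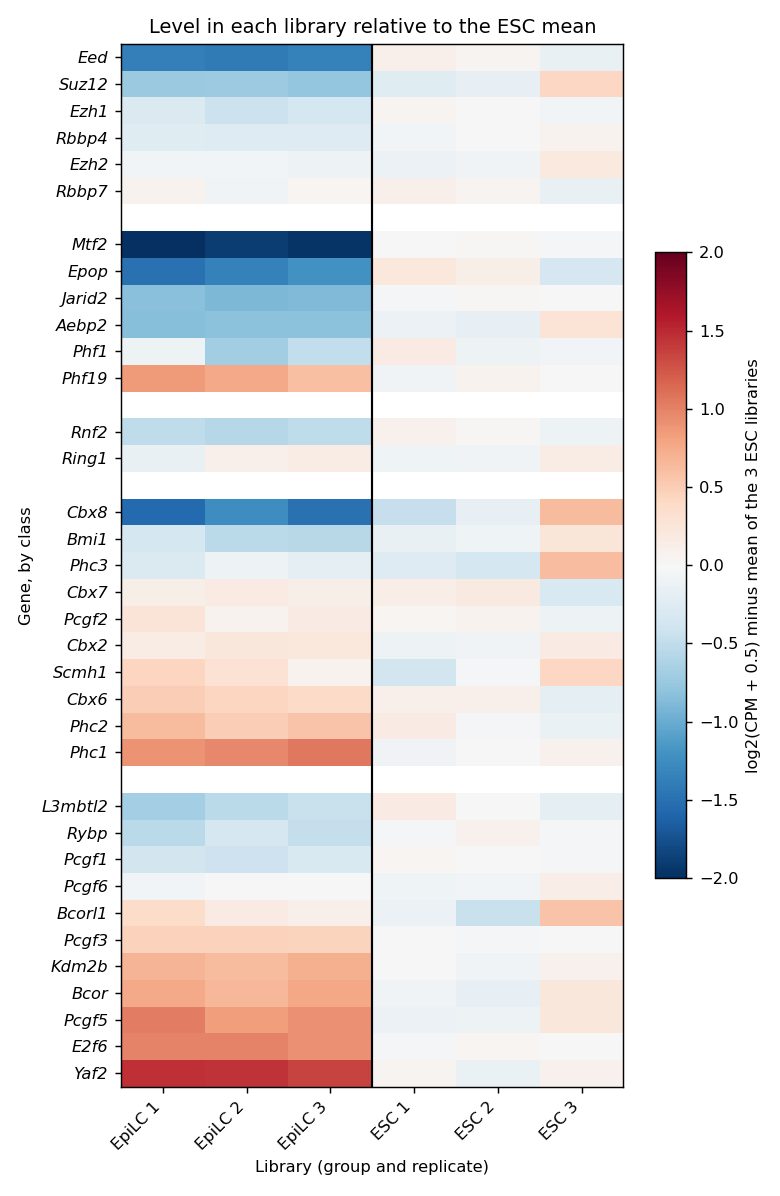
Level of each subunit in each library, as log2(CPM + 0.5) minus the mean of the 3 ESC libraries, with EpiLC replicates 1 to 3 left of ESC replicates 1 to 3 and genes grouped by class. EpiLC columns are blue for most PRC2 rows, Phf19 excepted, and red for 6 rows of variant PRC1 that rose, while ESC replicate 3 differs from its group in Suz12, Cbx8, Phc3, Scmh1 and Bcorl1.

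The transcript of the main ubiquitin ligase of PRC1 was lower in EpiLC. Rnf2, which encodes RING1B (chromosome 1, 151458004 to 151500955), had 129, 123 and 129 CPM in EpiLC and 195, 187 and 171 CPM in ESC. It fell 1.45-fold (log2 fold change -0.54, SE 0.07, adjusted p = 0.000196), with no overlap between groups. Its paralog Ring1 had 9.33, 11.2 and 11.7 CPM in EpiLC and 9.86, 9.91 and 11.7 CPM in ESC and was not called (log2 fold change 0.05, 95% interval -0.26 to 0.37). Per kilobase Rnf2 made up 90.3% ± 1.12 of the pair in EpiLC and 93.2% ± 1.05 in ESC.

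In canonical PRC1, 2 of the 3 polyhomeotic genes rose, and Phc3 was not called. Phc1 (ENSMUSG00000040669, chromosome 6, 122317731 to 122340561), whose protein polymerises through its SAM domain, had 252, 261 and 280 CPM in EpiLC and 128, 134 and 143 CPM in ESC. It rose 1.96-fold with no overlap (log2 fold change 0.97, SE 0.07, adjusted p = 7.61e-06). Phc2 had 22.9, 20.6 and 21.7 CPM in EpiLC and 16.3, 14.2 and 13.2 CPM in ESC and rose 1.48-fold (adjusted p = 0.00224).

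Phc3 followed ESC replicate 3. It had 18.1, 20.6 and 19.3 CPM in EpiLC and 18.4, 17.3 and 34.4 CPM in ESC, and was not called (log2 fold change -0.25, 95% interval -0.83 to 0.34, or 0.10 without ESC replicate 3). Phc1 made up 92.2% ± 0.47 of the polyhomeotic transcripts per kilobase in EpiLC and 88.2% ± 0.98 in ESC. Scmh1, a SAM-domain partner of the PHC proteins, had 7.13, 6.41 and 5.45 CPM in EpiLC and 3.89, 5.002 and 7.06 CPM in ESC. It was not called (adjusted p = 0.301, 0.0201 to 0.743 over the alternatives), and it was called higher without ESC replicate 3 (log2 fold change 0.48, adjusted p = 0.0201).

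The chromodomain subunits kept Cbx7 as their main transcript. Cbx7, which reads the PRC2 mark in embryonic stem cells (chromosome 15, 79915807 to 79971119), had 142, 147 and 142.5 CPM in EpiLC and 143, 149 and 106 CPM in ESC. It was not called (log2 fold change 0.11, 95% interval -0.17 to 0.39, or -0.04 without ESC replicate 3). Cbx2, whose protein compacts nucleosomes, had 54.7, 57.6 and 57.1 CPM in EpiLC and 46.0, 46.8 and 55.5 CPM in ESC. Cbx2 missed the threshold (log2 fold change 0.20, adjusted p = 0.0845, 0.000722 to 0.341 over the alternatives) and passed without ESC replicate 3 (0.27, adjusted p = 0.000722), when scaled by upper quartiles (0.0488) or by library totals (0.0442).

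Cbx6 and Cbx8 moved in opposite directions. Cbx6 had 90.0, 86.4 and 83.0 CPM in EpiLC and 68.3, 68.7 and 55.4 CPM in ESC and rose 1.35-fold (adjusted p = 0.00416). Cbx8, next to Cbx2 on chromosome 11 (119036305 to 119040969), had 10, 16 and 12 counts in EpiLC and 52, 76 and 73 counts in ESC. At 1.004, 1.37 and 1.07 CPM in EpiLC and 2.70, 3.42 and 6.36 CPM in ESC it fell 3.38-fold (log2 fold change -1.76, SE 0.41, adjusted p = 0.00554), or by -1.42 on the log2 scale without ESC replicate 3. Per kilobase Cbx7 made up 50.3%, 50.6% and 50.5% of the 4 CBX genes in EpiLC and 55.1%, 55.6% and 44.9% in ESC, so the shares overlapped.

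The PCGF subunits of canonical PRC1 were both low. Pcgf2, known as MEL18, averaged 16.1 ± 1.01 CPM in EpiLC and 14.3 ± 0.97 CPM in ESC and was not called (log2 fold change 0.16, 95% interval -0.08 to 0.41). Bmi1 averaged 11.0 ± 0.93 CPM in EpiLC and 15.6 ± 2.39 CPM in ESC and fell 1.41-fold (adjusted p = 0.0155, 0.00401 to 0.0617 over the alternatives). That call was lost without EpiLC replicate 2 (0.0617) and without EpiLC replicate 3 (0.0587). A pseudogene, Gm5946, matches 73.93% of the Bmi1 transcript at up to 96.99% identity, so its counts are uncertain.

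The class sum of canonical PRC1 was 106 ± 2.13 CPM per kilobase in EpiLC and 76.7 ± 1.26 in ESC. Most of that difference was Phc1: without it, the sum was 56.2 ± 0.59 in EpiLC and 51.3 ± 1.80 in ESC.

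**Figure D3:**
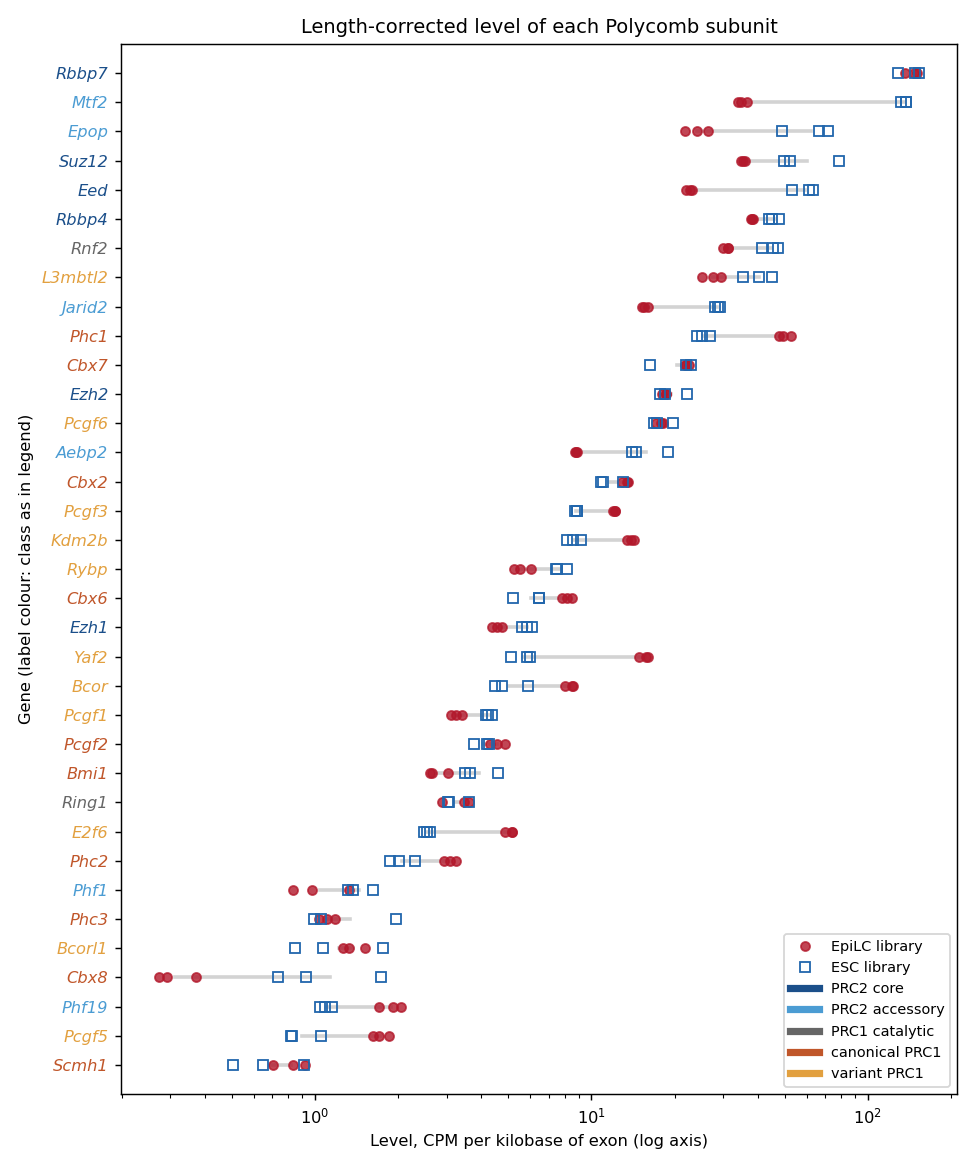
Level of each subunit in CPM per kilobase of annotated exon (x axis, log scale), with a filled circle per EpiLC library and an open square per ESC library, genes ordered by their ESC mean, gene labels coloured by class and a grey line joining the group means. Mtf2 averages 35.1 CPM per kilobase in EpiLC, at rank 5 of 35, and 136 in ESC, at rank 2, whereas Phc1 averages 49.9 in EpiLC, at rank 2, and 25.4 in ESC, at rank 10.

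The transcripts of the RYBP-type subunits of variant PRC1 changed in opposite directions. Yaf2 (ENSMUSG00000022634, chromosome 15, 93284278 to 93336935) had 30.1, 29.6 and 27.9 CPM in EpiLC and 10.9, 9.60 and 11.2 CPM in ESC. It was the largest rise among the 35 subunits, 2.77-fold (log2 fold change 1.47, SE 0.10, adjusted p = 6.63e-06), with no overlap. Rybp (chromosome 6, 100228565 to 100287485) had 24.9, 28.7 and 26.2 CPM in EpiLC and 35.6, 38.6 and 35.4 CPM in ESC and fell 1.37-fold (adjusted p = 0.00211).

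These opposite changes turned the order of the paralogs round. Per kilobase Yaf2 made up 75.4%, 72.3% and 72.9% of the pair in EpiLC and 43.8%, 38.6% and 44.6% in ESC. An exact two-sided permutation test of this share gave p = 0.1, the smallest that 3 against 3 libraries allow. In all, 32 such shares over 10 families were compared, 25 without overlap, and the smallest p adjusted over the 32 was 0.128, so none could pass 0.05. Shares within a pair mirror each other, and the Polycomb-like genes are in more than a single family, so these comparisons are not separate. A pseudogene, Rybp-ps, matches 15.12% of the Rybp transcript at up to 99.27% identity, so Rybp counts are uncertain too.

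In the KDM2B form of variant PRC1, 2 of the 4 genes rose, 1 fell and 1 was not called. Kdm2b, whose zinc finger binds unmethylated CpG islands (chromosome 5, 122870665 to 122989823), had 151, 146 and 154 CPM in EpiLC and 93.3, 89.0 and 99.7 CPM in ESC and rose 1.60-fold (log2 fold change 0.68, SE 0.07, adjusted p = 4.4e-05). The corepressor gene Bcor had 73.7, 69.5 and 74.4 CPM in EpiLC and 41.3, 38.9 and 51.2 CPM in ESC and rose 1.66-fold (adjusted p = 0.000451). Neither overlapped between groups. Exons of Kdm2b overlap the opposite-strand Rnf34 over 5.77% of their length and the antisense gene A930024E05Rik (17.3 CPM in EpiLC and 1.65 CPM in ESC) over 1.83%.

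The other 2 genes of that form were low. Bcorl1, a paralog of Bcor, had 12.9, 11.3 and 10.7 CPM in EpiLC and 9.13, 7.21 and 15.0 CPM in ESC. It was not called (adjusted p = 0.511, 0.00356 to 0.903 over the alternatives), although it was called higher without ESC replicate 3 (log2 fold change 0.50, adjusted p = 0.00356). Pcgf1, the PCGF subunit of that form, had 5.32, 5.13 and 5.62 CPM in EpiLC and 7.21, 6.98 and 6.88 CPM in ESC. It was called lower (log2 fold change -0.39, SE 0.13, adjusted p = 0.0298, 0.0145 to 0.118 over the alternatives), a call that 8 of 13 alternatives lost. The pseudogene Gm8930 matches 83.22% of the Pcgf1 transcript at up to 97.51% identity, so this low level is uncertain.

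In the PCGF3 and PCGF5 form of variant PRC1, both PCGF genes rose. Pcgf3 had 116, 116 and 114 CPM in EpiLC and 84.4, 83.0 and 84.5 CPM in ESC and rose 1.37-fold (adjusted p = 0.000165). Its paralog Pcgf5, which works with Pcgf3 in spreading H2A ubiquitination, had 23.4, 20.5 and 21.6 CPM in EpiLC and 10.3, 10.5 and 13.2 CPM in ESC and rose 1.94-fold (adjusted p = 0.000254). Among the 6 PCGF genes, the per-kilobase share of Pcgf3 was 28.7% ± 0.49 in EpiLC and 22.1% ± 0.99 in ESC, and that of Pcgf5 was 4.11% ± 0.25 in EpiLC and 2.25% ± 0.21 in ESC.

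The form with PCGF6, which represses germline genes in embryonic stem cells, was mixed. Pcgf6 itself had 86.1, 89.6 and 90.9 CPM in EpiLC and 84.4, 86.9 and 99.0 CPM in ESC. The groups overlapped and it was not called (log2 fold change -0.02, 95% interval -0.20 to 0.16). It remained the main PCGF transcript, at 42.0% ± 1.25 of the family per kilobase in EpiLC and 44.9% ± 1.64 in ESC. E2f6, a repressor that brings this form to DNA (chromosome 12, 16810963 to 16839742), had 29.2, 29.3 and 27.6 CPM in EpiLC and 14.0, 14.8 and 14.4 CPM in ESC and rose 1.99-fold (log2 fold change 0.99, SE 0.09, adjusted p = 2.32e-05).

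L3mbtl2, an MBT-domain subunit of the same form, went the other way. It had 149, 164 and 175 CPM in EpiLC and 267, 241 and 211 CPM in ESC and fell 1.47-fold (adjusted p = 0.00126) without overlap. Of its exon bases, 17.2% overlap the opposite-strand Chadl, which had 1.82 CPM in EpiLC and 2.65 CPM in ESC. L3mbtl2 is the most abundant variant PRC1 transcript per kilobase. With it, the class sum was 112 ± 2.06 CPM per kilobase in EpiLC and 103 ± 2.62 in ESC. That is 1.09-fold higher in EpiLC, and the groups did not overlap. Without L3mbtl2 it was 84.6 ± 0.13 in EpiLC and 62.7 ± 3.40 in ESC, and without Yaf2 it was 96.3 ± 2.66 in EpiLC and 97.3 ± 2.39 in ESC, where the groups overlapped.

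**Figure D4:**
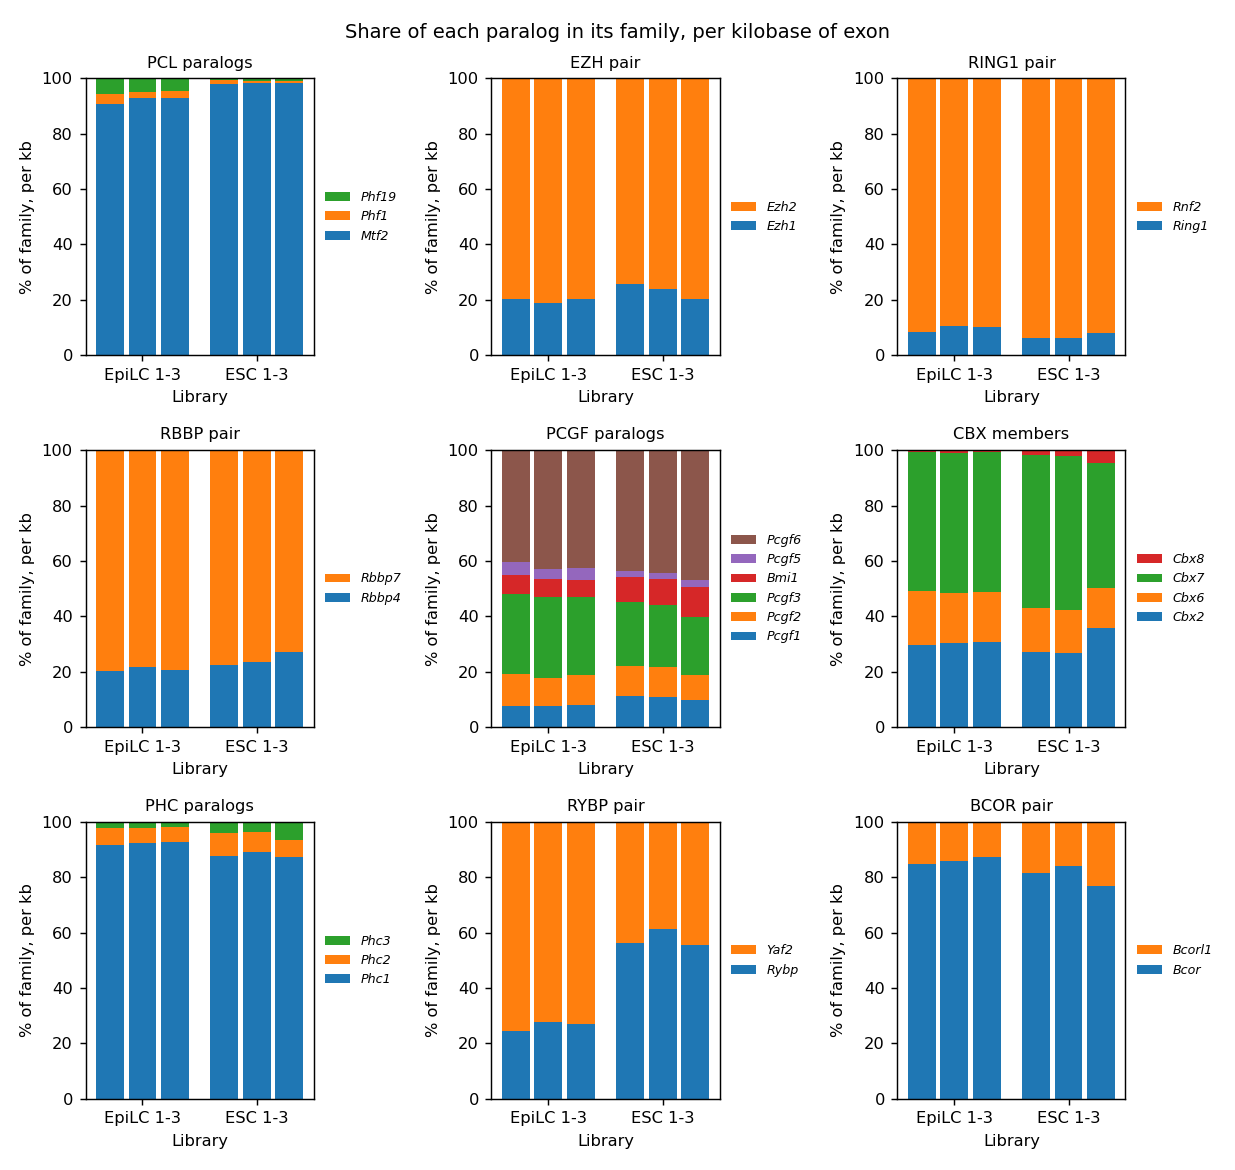
Share of each paralog in its family (y axis, percent of the family's counts per kilobase of exon) in each library, with EpiLC replicates 1 to 3 left of ESC replicates 1 to 3. Yaf2 takes 72.3% to 75.4% of its pair in EpiLC and 38.6% to 44.6% in ESC, while Rnf2, Ezh2, Phc1, Mtf2 and Pcgf6 hold the largest share of their families in each library.

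Genes that work with or against Polycomb but are not among the 35 moved in both directions. Of 23 tested PRC1 partners, 7 were higher, 11 lower and 5 not called (median log2 fold change -0.12). That is 78.3% called, against 64.6% of all genes tested. The higher and lower counts were 5 and 7 without EpiLC replicate 1 and 6 and 7 without EpiLC replicate 3. Wdr5, shared between PRC1 and COMPASS, fell to 219 ± 3.01 CPM in EpiLC, against 447 ± 21.1 CPM in ESC. Of the PRC2 partners, Lcor averaged 17.0 ± 0.84 CPM in EpiLC and 20.7 ± 4.10 CPM in ESC and was not called, and Ezhip was not analysed here.

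Genes of PR-DUB, the H3K27 demethylases, and the trithorax and COMPASS genes were counted as 3 lists. The share called was 54.5% for PR-DUB and 71.4% for the trithorax and COMPASS genes, against 64.6% of all genes tested. Both H3K27 demethylase genes rose: Kdm6a averaged 102 ± 4.28 CPM in EpiLC and 67.5 ± 5.47 CPM in ESC (log2 fold change 0.60), and Kdm6b had 23.9, 25.1 and 24.7 CPM in EpiLC and 8.09, 8.88 and 17.6 CPM in ESC (1.14, or 1.52 without ESC replicate 3). Of 11 genes of PR-DUB, the complex that removes H2A ubiquitin, 5 were higher and 1 lower (median 0.24), and 6 and 3 without ESC replicate 3. Asxl3 rose to 8.86 ± 1.46 CPM in EpiLC, against 1.43 ± 0.35 CPM in ESC, and Asxl1 to 225 ± 3.89 CPM, against 132 ± 9.36 CPM in ESC. Of 14 trithorax and COMPASS genes, which include the H3 lysine 4 methyltransferases and their shared subunits, 6 were higher and 4 lower (median 0.12), and 8 and 4 without ESC replicate 3. The methyltransferase genes Kmt2a (135 ± 8.12 CPM in EpiLC and 62.4 ± 15.8 CPM in ESC) and Setd1b (8.50 ± 1.35 CPM in EpiLC and 3.18 ± 0.385 CPM in ESC) rose, and the shared subunit Rbbp5 fell to 58.3 ± 2.90 CPM in EpiLC, against 128 ± 11.9 CPM in ESC.

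Other quantities moved with the same contrast. Of the genes tested in each list, 70.0% of proliferation and replication genes, 75.0% of fibroblast and 83.3% of neural markers were called. The shares were 80.0% for primitive endoderm and 60.0% for trophectoderm markers, against 64.6% of all genes tested. Of 20 proliferation and replication genes 3 were higher and 11 lower (median log2 fold change -0.23), and 15 were lower without ESC replicate 3, with summed levels of 6858 to 7163 CPM in EpiLC and 7719 to 8354 CPM in ESC. Of 11 fibroblast markers 8 were tested, 5 were higher and 1 lower, with sums of 275 to 323 CPM in EpiLC and 14.5 to 19.0 CPM in ESC. Most of the EpiLC sum was Tagln, a smooth muscle actin-binding protein, at 275 ± 23.6 CPM in EpiLC and 2.95 ± 0.18 CPM in ESC. Lum was at 0 in each EpiLC library, and Dcn and Postn were at 0 in each ESC library. Of 8 neural markers 6 were tested and 5 were higher, with sums of 430 to 469 CPM in EpiLC and 96.1 to 135 CPM in ESC. Of 8 primitive endoderm markers 5 were tested, 2 were higher and 2 lower (median log2 fold change -0.09). The 8 markers summed to 16.7 to 19.2 CPM in EpiLC and 8.61 to 13.1 CPM in ESC, with Hnf4a at 0 in each EpiLC library. Of 8 trophectoderm markers 5 were tested, 1 was higher and 2 lower (median log2 fold change -0.22). Their sums were 22.8 to 28.0 CPM in EpiLC and 51.0 to 66.2 CPM in ESC, with Elf5 at 0 in each EpiLC library. The part of these lists in the changes of the Polycomb genes was not tested.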

How the data were processed

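The authors deposited raw counts of reads for Ensembl genes in 6 library columns. The authors used cutadapt, STAR, featureCounts and DESeq2 with the build mm10, per the submitters' processing notes. Versions, annotation release, strand setting and the treatment of multiply mapped reads were not given in the sources used here. RNA was rRNA-depleted and about 100 ng went into a stranded kit, per the labels' protocols.

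Of 51918 rows, 92 spike-in rows (0 counts) were left out. Genes were named and measured by GENCODE M21 (GRCm38, the assembly of mm10), with length taken as the union of all annotated exons. Counts were tested with edgeR 4.0.16 in R 4.3.3 (quasi-likelihood, TMM, filterByExpr with minimums of 10 counts and 15 in total, group as the single term, two-sided, Benjamini-Hochberg over all 14996 genes tested). Levels are CPM on TMM-scaled totals of the genes tested, and 3 counts, the limit that a count of 0 allows, correspond to 0.135 to 0.301 CPM, covering counting error only. Paralog shares and subunit ratios were tested by exact permutation (scipy 1.17.1). Alternatives used other scalings, no filter, DESeq2 1.42.0, limma-voom (limma 3.58.1), a replicate block and each library left out.

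On simulated counts with 14800 genes tested, the fit for EpiLC against ESC recovered 47.8% of 1.5-fold, 92.6% of 2-fold and 100.0% of 4-fold changes, and called 10 of 14600 unchanged genes. The simulation changed few genes, all above a minimum mean count, gave every gene the same dispersion and held no library that stood apart. In the real data 64.6% of genes were called and ESC replicate 3 stood apart, so these rates need not carry over.

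The subunits and lists were chosen with earlier results of these data known. All 35 subunits are named. From each other list up to 3 called genes are named, those with the largest change and at least 1 CPM in the higher group. Uncalled genes at that level may be given. Cdkn1c was named after its values were seen. Overlapping genes were found by exon position and near-identical copies by blastn of the longest transcript.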

Additional observations from a re-analysis of the deposited data

How the results depend on the processing

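Of the 24 calls among the 35 subunits, 22 held under all 13 alternatives, Bmi1 and Pcgf1 being the exceptions. Over 455 refitted log2 fold changes of single subunits, 422 kept their direction and their side of the threshold, 10 lost and 7 gained a call and 16 changed sign, none of those 16 in a called subunit. The count of subunits at least 2-fold higher, 1, was 4 under either upper quartile or library total scaling, since E2f6, Phc1 and Pcgf5 lie just under 2-fold and library totals moved the median of all genes by 0.07, and it ran from 1 to 3 with a library left out. Canonical PRC1 subunits called higher ran from 3 to 5 and lower from 1 to 2 with a library left out. Class medians with library totals were -0.79 (PRC2 accessory), -0.18 (PRC1 catalytic) and 0.53 (variant PRC1), and with no filter -0.92, -0.31 and 0.39.

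Signs turned for uncalled genes. With no filter Rbbp7 was at -0.062 and Ring1 at -0.017, and Pcgf6 was at 0.028 when scaled by upper quartiles and 0.047 by library totals. With a library left out, values ran from -0.15 to 0.0084 for Ezh2, -0.075 to 0.045 for Rbbp7, -0.021 to 0.14 for Ring1, -0.039 to 0.19 for Cbx7, -0.44 to 0.10 for Phc3, -0.080 to 0.039 for Pcgf6 and -0.036 to 0.50 for Bcorl1. The share differences (percentage points) of Pcgf2 and Cbx2 were -0.239 and -0.38 on raw counts without length correction, which also moved those of Phc1 to 8.35 (4.02 per kilobase), Pcgf6 to -6.12 (-2.91), Pcgf5 to 3.36 (1.86) and Cbx7 to -2.78 (-1.39), and with a library left out ran from -0.040 to 0.98 for Pcgf2, -1.21 to 3.47 for Cbx2 and -4.87 to 0.449 for Cbx7. The causes were not tested beyond these settings.

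The labels state no pairing of libraries. Deviations from the group mean correlated at -0.09, -0.01 and -0.15 for same-numbered libraries and from -0.13 to 0.14 for the others. Deviations from a mean of so few libraries are tied to each other, so this check cannot exclude a pairing. The replicate block left 23 of the 24 calls, losing Pcgf1 (log2 fold change -0.39, adjusted p = 0.0684).

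Counts of 10 to 76 per library limit Cbx8, and shifts under 1.5-fold may be missed at 3 libraries a group.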

Other observations

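Developmental genes known as Polycomb targets were mostly too low to test. Of 63 such genes, 26 passed the filter on low counts. In EpiLC 12 of these were called higher, 5 lower and 9 not called (median log2 fold change 0.74). Of the 26, 65.4% were called, close to the 64.6% of all genes tested. With no filter 61 of the 63 were tested, and 18 were called higher and 8 lower. The share of all genes called with no filter is not given here. Without ESC replicate 3, 15 were higher, and without EpiLC replicate 3, 8 were. The neural factor Pax6 averaged 9.14 ± 0.37 CPM in EpiLC and 0.198 ± 0.11 CPM in ESC, and Nkx2-2 averaged 2.04 ± 0.47 CPM in EpiLC and 0.0591 ± 0.051 CPM in ESC. The endoderm factor Sox17 went the other way, with 0, 0 and 2 counts in EpiLC and 23, 26 and 23 counts in ESC, or 0.0595 ± 0.10 CPM in EpiLC and 1.46 ± 0.47 CPM in ESC (SD, n = 3 each), and it was called lower (adjusted p = 0.000429 by edgeR). The list's summed level was 168 to 180 CPM in EpiLC and 101 to 139 CPM in ESC. A large part of that difference was a single gene, Cdkn1c, picked after its values were seen. It averaged 45.2 ± 2.09 CPM in EpiLC and 6.92 ± 2.48 CPM in ESC, so the sum does not describe the list as a whole. Evx2, Tbx5 and Wnt1 were at 0 in each EpiLC library, and Evx2, Lhx1, Nkx2-1, Otp and Wnt1 were at 0 in each ESC library.

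Among replication genes, E2f1 averaged 11.2 ± 1.38 CPM in EpiLC and 26.4 ± 2.72 CPM in ESC, and Mcm6 averaged 454 ± 20.6 CPM in EpiLC and 734 ± 35.2 CPM in ESC, whereas Mki67 averaged 653 ± 34.4 CPM in EpiLC and 313 ± 40.9 CPM in ESC.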
